A study of Mus musculus with 20 samples.

Results

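The regions described here were open, by DNase islands, in both libraries of Tomato- follicular helper T cells (Tfh) and had no island in either library of Tomato+ Tfh cells. They number 1169 of the 25755 regions obtained by joining overlapping or touching islands of all 8 DNase libraries of the series. They were chosen by the island calls of the 4 Tfh libraries, so their pattern in Tfh cells is a description and was not tested. The pattern did not use the island calls of the 4 non-Tfh libraries, but their islands helped to set the extent of the joined regions. A non-Tfh island that joined a Tomato- Tfh island to a Tomato+ Tfh island would have taken that site out of the set.

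All 4 groups came from T-bet-Cre mice with a Rosa26-loxP-STOP-loxP-tdTomato allele, on a C57BL/6 background. These mice were immunized with the AS15 peptide in CFA, and tetramer-binding (AS15-specific) CD4 T cells were sorted from draining lymph nodes on day 16. Sorting by surface markers gave Tfh cells (CXCR5high PD1high) and non-Tfh cells (CXCR5low PD1low), and each was split into Tomato+ and Tomato- cells, with 2 DNase libraries per group. The labels give no age, do not say whether animals were pooled and do not say that replicates came from separate animals, so the spread between replicates may be technical.

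Tfh cells are CD4 T cells that enter B cell follicles and help B cells form germinal centres. T-bet is the transcription factor that directs Th1 differentiation, and in these mice Cre made from the T-bet gene removes a stop cassette, so that a cell that has once expressed it, and its progeny, carry tdTomato whether or not T-bet is still present. DNase cuts DNA where it is not wrapped tightly in chromatin, mostly at promoters and enhancers, and an island is a stretch where cut fragments are denser than a random background. An island that is absent from a list may be a closed site or a site whose signal lay under the calling threshold of that library.

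The Tomato- Tfh libraries had more islands than the Tomato+ Tfh libraries. Replicates 1 and 2 held 18742 and 17531 islands in Tomato- Tfh cells and 14084 and 15374 in Tomato+ Tfh cells. Their lowest island scores were 39.9 and 41.2 in Tomato- and 48.0 and 50.4 in Tomato+ Tfh cells. The covered length overlapped between the groups, at 42.2 and 37.6 Mb against 38.7 and 41.6 Mb, and the islands of Tomato+ Tfh cells were wider, with a median of 2400 bp against 2000 bp. The non-Tfh libraries held 18061 and 14980 islands in Tomato- cells and 20460 and 21222 in Tomato+ cells. The files give no read numbers, so the depth of these libraries is unknown.

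Polyadenylated RNA of cells from the same 4 gates (2 libraries each, 13169625 to 20225695 reads over genes) gives the levels of cell type markers. They are in RPKM, the authors' reads scaled to transcript length and library total. The sample titles do not say that the RNA and DNase libraries came from the same sorted cells. All 7 measured CD4 T cell markers were present in each of the 8 libraries, Cd4 itself at 340 to 444 RPKM. The Tfh regulator Bcl6 was at 95.2 to 139 RPKM in Tfh and 21.1 to 31.6 RPKM in non-Tfh libraries. Of the 8 Tfh markers only Icos went the other way, at 157 to 196 RPKM in Tfh and 228 to 294 RPKM in non-Tfh libraries. Tbx21, which encodes T-bet, was at 12.8 and 12.9 RPKM in Tomato- Tfh libraries and at 105.9 and 53.0 RPKM in Tomato+ Tfh libraries, as the Tomato gate selects for. Macrophage, monocyte and MHC class II transcripts were lower with Tomato. The summed level of 10 macrophage and monocyte markers was 921 and 1058 RPKM in Tomato- Tfh and 451 and 341 RPKM in Tomato+ Tfh libraries, with a higher mean in Tomato- Tfh cells for 9 of the 10. The same sum was 1336 and 1396 RPKM in Tomato- and 174 and 115 RPKM in Tomato+ non-Tfh libraries. The 7 neutrophil markers summed to 37.8 and 483 RPKM in Tomato- Tfh and 1.39 and 8.24 RPKM in Tomato+ Tfh libraries. The largest part of the 483 was S100a8, at 9.69 and 300 RPKM in Tomato- Tfh replicates 1 and 2. Cxcr2 was at 0.0113 and 0 RPKM in Tomato- Tfh and at 0 in both Tomato+ Tfh libraries. In non-Tfh cells the 7 markers summed to 58.5 and 415 RPKM without Tomato and 101.1 and 11.1 RPKM with it. The 4 MHC class II genes summed to 2628 and 1935 in Tomato- against 1119 and 777 RPKM in Tomato+ Tfh cells, and to 3868 and 3287 against 918 and 671 RPKM in non-Tfh cells. The 8 B cell markers were not lower with Tomato in both replicates, at 110.1 and 122 against 140.0 and 104.7 RPKM in Tfh and 105.5 and 119 against 136 and 121 RPKM in non-Tfh cells. The 7 dendritic cell markers summed to 265 and 257 against 253 and 129 RPKM in Tfh cells. Their sums overlapped in non-Tfh cells at 253 and 406 against 262 and 208 RPKM. Most of each sum was 1 gene, Cst3, at 259 and 240 against 248 and 121 RPKM in Tfh cells. In such bulk samples fewer cells of a type and less RNA per cell cannot be told apart. The part of these cells in the regions described here was not tested.

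As deposited, regions of the Tomato- only pattern were far more frequent than regions of the reverse pattern. The 1169 regions make up 4.54% of all regions, whereas 133 regions, or 0.516%, had an island in both Tomato+ and in neither Tomato- Tfh library. A further 3448 regions just missed the pattern because only 1 Tomato- library had an island and no Tomato+ library did, and 1845 missed it because both Tomato- libraries and 1 Tomato+ library did. Regions with an island in all 4 Tfh libraries numbered 11619.

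That imbalance was not present when every library was reduced to the same number of islands. With the 14084 highest scoring islands of each library, 296 of 19707 regions (1.5%) had the Tomato- only pattern and 359 (1.82%) the reverse. Of the 1169 regions, 214 (18.3%) still overlapped a region of the pattern, 493 kept an island in only 1 Tomato- Tfh library and 462 kept none there. Counted over 200-bp bins in place of regions, 12426 bins were covered in both Tomato- and neither Tomato+ Tfh library and 12550 in the reverse way. Of the former, 61.4% lay in the 1169 regions and the rest in regions where both kinds of Tfh cell had an island. Of the latter, 9.63% lay in the 133 reverse regions. The other Tomato+ only bins, 90.4%, lay in regions where both kinds of Tfh cell had an island.

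The islands behind the 1169 regions ranked low among the islands of their own libraries. The rank is given as a percentile, the share of a library's islands with a score no higher than that of the best island of the region. In Tomato- Tfh replicate 1 the lowest percentile was 0.0347, the median 20.5 and the highest 68.6. In replicate 2 these were 0.00856, 15.8 and 59.6. Only 5 regions were at or above the 50th percentile in both libraries, and 582 (49.8%) were below the 25th in both. Regions of all 4 Tfh libraries had medians of 68.5 and 66.4 in the same libraries. Regions that missed the pattern for want of 1 Tomato- library had a median percentile of 12.1 in the other, and those that missed it through 1 Tomato+ library had a median of 28.5 over the Tomato- libraries, on either side of the 18.8 of the regions described here. The reverse regions ranked as low in their own libraries, with medians of 14.9 and 18.9 in Tomato+ Tfh replicates 1 and 2. The scores of the 1169 regions in the 2 Tomato- libraries were only weakly alike in rank, with a Spearman rho of 0.192 across these regions, which come from the same 2 libraries and were chosen for having an island in both.

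**Figure D1:**
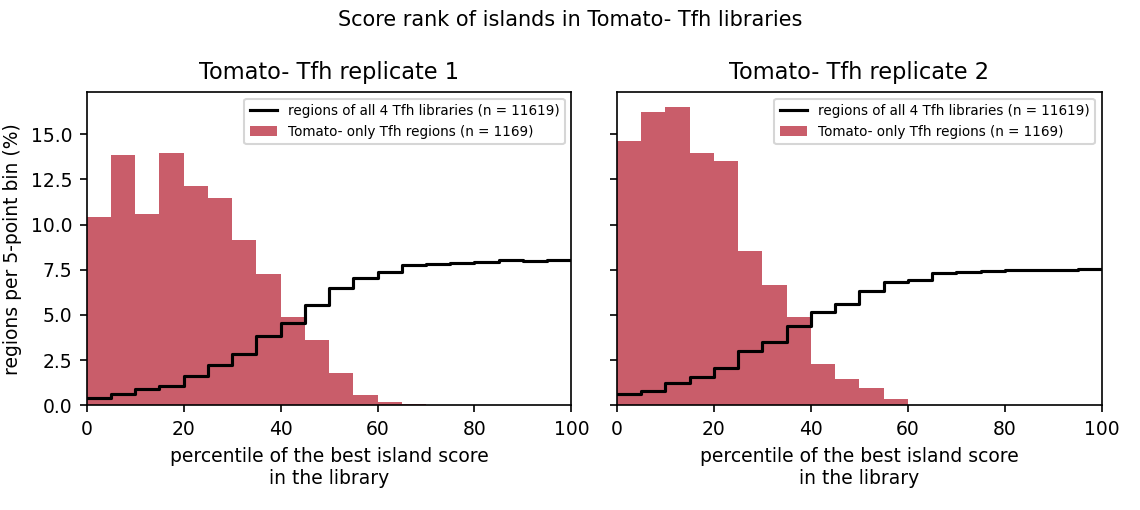
Distribution of the within-library score percentile of the best island of each region in Tomato- Tfh replicate 1 (left) and 2 (right), as the percentage of regions in each bin of 5 percentile points. Red bars are the 1169 regions with islands in Tomato- Tfh cells only and the black line is the 11619 regions of all 4 Tfh libraries; the red bars crowd at the low end, with medians of 20.5 and 15.8, and the line rises toward the high end.

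In 1167 of 1169 regions the islands of the 2 Tomato- Tfh replicates overlapped, by a median of 1200 bp. Islands were joined only where they overlapped or touched, so this overlap largely follows from the rule and does not measure agreement. In the median region the shorter island lay wholly within the longer. Of the 1169 regions, 1162 had a single island in each Tomato- Tfh library. The joined regions had a median width of 2400 bp, from 600 to 9200 bp, against 3000 bp for all regions and 3800 bp for the 133 reverse regions. The nearest Tomato+ Tfh island was a median of 17.2 kb away, with an interquartile range of 6.8 to 44.2 kb. It lay within 1 kb for 37 regions (3.17%), within 5 kb for 220 (18.8%) and beyond 50 kb for 262 (22.4%). Most of these regions therefore lay more than 5 kb from any Tomato+ Tfh island. By the rule no region could overlap or touch such an island. Whether the 37 within 1 kb belong to the flank of one was not tested.

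The regions were spread over all chromosomes with islands except Y. They formed from 3.30% of all regions on chromosome 14 to 5.56% on chromosome 15, and 3.63% on chromosome X, around the 4.54% of the whole set. Another region of the set lay within 50 kb for 167 of them (14.3%), and 7 groups had 3 neighbours so spaced, the most found. The tightest of these 7, chosen after its values were seen, spanned 37.8 kb at chr11:77893401-77931200. The median distance to a region with islands in all 8 libraries was 28.4 kb, and it was 25 kb for the 13988 other regions that were not in all 8. Positions are those of the mm9 build, counted from 1. No genome sequence or gene annotation of that build was used here, so the genes, exons or promoters at these regions are not given.

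The non-Tfh libraries asked whether the sites of Tomato- Tfh cells were also open outside the follicular subset, and whether Tomato divided them there too. Most were found outside Tfh cells at least once. An island was present in at least 1 of the 4 non-Tfh libraries for 887 of the 1169 regions, in all 4 for 200 (17.1%) and in none for 282 (24.1%). Over all regions, 48.4% had an island in all 4 non-Tfh libraries and 10.6% in none. Of all regions, 4988 (19.4%) had no Tfh island. These were counted only through a non-Tfh island and so cannot be in none. The 133 reverse regions were in all 4 in 27 cases (20.3%) and in none in 12 (9.02%). Regions with islands in all 4 Tfh libraries were in all 4 non-Tfh libraries in 91.2% of cases.

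**Figure D2:**
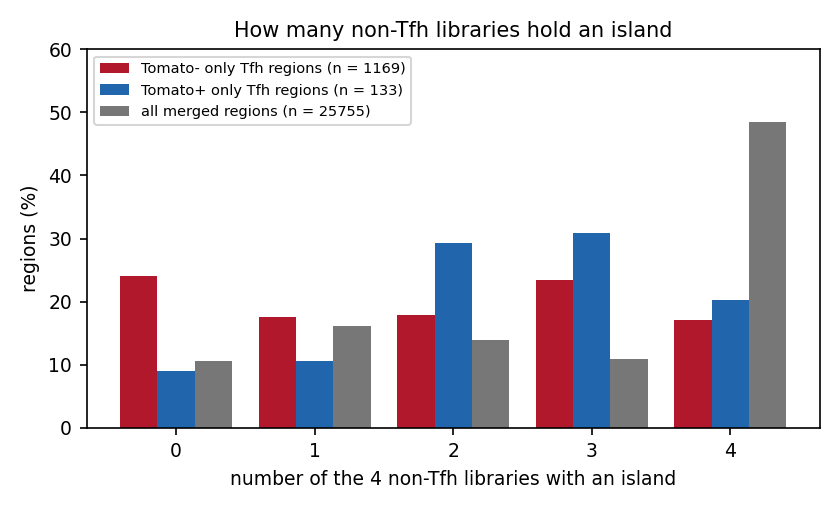
Percentage of regions by the number of the 4 non-Tfh libraries that had an island, for the 1169 regions with islands in Tomato- Tfh cells only (red), the 133 of the reverse pattern (blue) and all 25755 regions (grey). The red bars are nearly even from 0 to 4 libraries, 24.1% at 0 and 17.1% at 4, while 48.4% of all regions stand at 4.

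In the deposited lists the regions were not more often open in Tomato- than in Tomato+ non-Tfh cells. Tomato- non-Tfh replicates 1 and 2 had an island at 609 (52.1%) and 422 (36.1%) of them. Tomato+ non-Tfh replicates 1 and 2 had one at 619 (53.0%) and 592 (50.6%). The Tomato- replicate 2, which has the fewest islands of the 4, stood apart and the other 3 were close together. The means were 44.1% ± 11.3 in Tomato- and 51.8% ± 1.63 in Tomato+ cells (SD, n = 2), a difference of -7.70 percentage points (exact permutation test over the 4 libraries, two-sided, p = 0.667). With 2 libraries against 2 this test cannot give a p below 0.333. Without Tomato- non-Tfh replicate 2 the difference was 0.30 points, and without replicate 1 it was -15.7 points. All regions together differed by -13.6 points, from 60.8% ± 7.28 to 74.4% ± 1.08, so the non-Tfh Tomato+ libraries had islands at more regions. Part of that set, the regions with no Tfh island, was counted only through these non-Tfh libraries.

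The reverse regions leaned further toward Tomato+ in the same libraries. They had an island in 46.6% and 32.3% of cases in the Tomato- non-Tfh replicates and in 81.2% and 82.7% in the Tomato+ replicates, a difference of -42.5 points. Their share was subtracted from that of the 1169 regions library by library, so that both come from 1 list of islands. The result was 5.48 and 3.77 points in the Tomato- replicates and -28.3 and -32.1 points in the Tomato+ replicates, and the groups did not overlap. The difference between them was 34.8 points, from 4.62 ± 1.21 to -30.2 ± 2.70 (SD, n = 2; exact permutation test, two-sided, p = 0.333, the smallest it can give). A further comparison was added after the data were seen. With all other regions, including those with no Tfh island, in place of the reverse ones, the difference was 6.23 points (exact p = 0.333). The 34.8-point difference relative to the reverse regions was 0.36 points over 200-bp bins (exact p = 1). It fell to 16.6 and 15.8 points without Tomato- Tfh replicates 1 and 2 and to 18.9 points without Tomato+ Tfh replicate 2.

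With the same number of islands in every library, the Tomato- only Tfh regions of that setting more often had an island in Tomato- than in Tomato+ non-Tfh libraries. Of the 296 regions with the Tomato- only pattern in that setting, 41.2% and 47.0% had an island in Tomato- non-Tfh replicates 1 and 2, and 22.0% and 17.9% in Tomato+ replicates 1 and 2. The groups did not overlap, and the means were 44.1% ± 4.06 and 19.9% ± 2.87 (SD, n = 2), a difference of 24.2 points (exact permutation test, two-sided, p = 0.333, the smallest it can give). All 19707 regions of that setting stood at 68.3% ± 0.459 in Tomato- and 67.4% ± 0.463 in Tomato+ cells, and the 359 reverse regions at 40.1% ± 1.18 and 60.2% ± 1.97. The direction of the Tomato difference at Tomato- only sites of Tfh cells therefore depended on whether the number of islands was set equal. This setting left out 31.2% and 33.6% of the islands of Tomato+ non-Tfh replicates 1 and 2, and 22.0% and 5.98% of those of the Tomato- replicates.

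**Figure D3:**
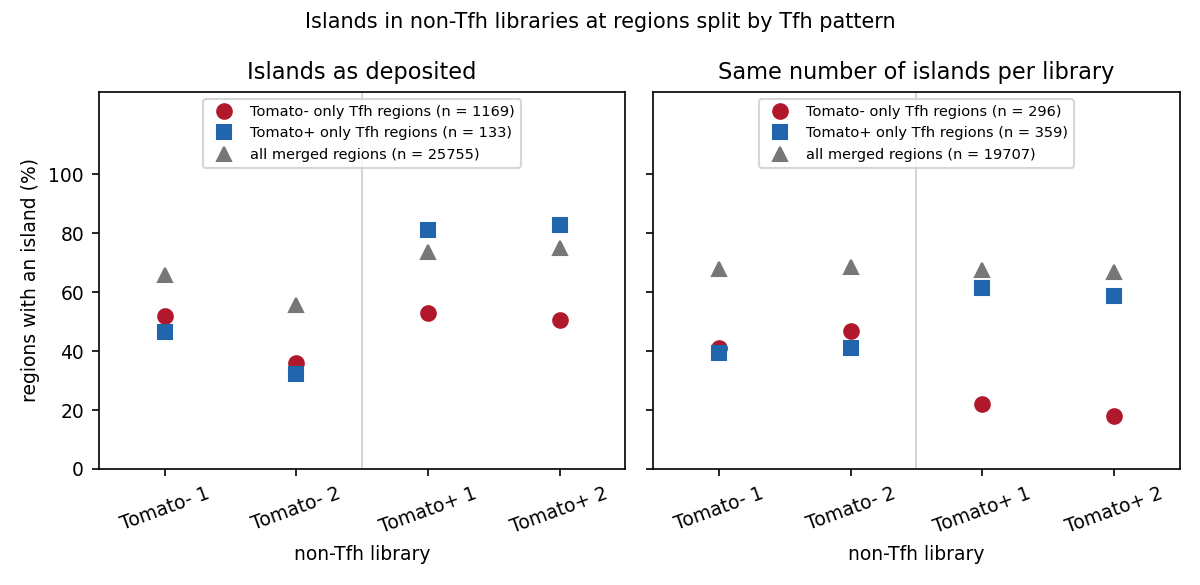
Percentage of regions with an island in each non-Tfh library, with the islands as deposited (left) and with the 14084 highest scoring islands of every library (right). Red circles are regions with islands in Tomato- Tfh cells only, blue squares the reverse pattern and grey triangles all regions; the red circles lie at 36.1 to 53.0% on the left without a split by Tomato and on the right at 41.2 and 47.0% in Tomato- against 22.0 and 17.9% in Tomato+ libraries.

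Some regions followed Tomato in all 8 libraries. Islands in both Tomato- and neither Tomato+ non-Tfh library were found at 26 of the 1169 regions (2.22%), where 0.757% of all regions had this non-Tfh pattern. These 26 are 13.3% of the 195 regions with that non-Tfh pattern. That share was not particular to it. The 1169 also made up 15.2% of all regions in every non-Tfh library but Tomato+ replicate 1 and 13.3% of those in every one but Tomato+ replicate 2. They were 12.7% of those in Tomato- replicate 2 and Tomato+ replicate 1 alone. Their share was lower, at 6.87%, of those in Tomato- replicate 1 alone. The opposite non-Tfh pattern, both Tomato+ and neither Tomato-, was found at 66 (5.65%) of the 1169, where 8.55% of all regions had it. Those 66 are 3.0% of the 2201 such regions. Regions with no Tfh island are again counted among all regions. Among the reverse regions the counts were 1 and 35 of 133. With the same number of islands, 42 of 296 regions (14.2%) were in both Tomato- and neither Tomato+ non-Tfh library, against 3.35% of all regions, and 2 were in the opposite pattern, against 4.48%.

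The 26 regions that were open in all 4 Tomato- and none of the 4 Tomato+ libraries lay on 14 chromosomes, with widths of 1200 to 5800 bp. Their mean percentile in Tomato- Tfh cells ran from 3.70 to 42.1, with a median of 18.5. The highest ranked was chr15:103150601-103156400, at percentiles 56.4 and 27.8 in Tomato- Tfh replicates 1 and 2 and 9.75 and 15.5 in Tomato- non-Tfh replicates 1 and 2. The next, chr3:93246601-93250400, stood at 41.4 and 42.1 in Tfh and at 8.95 and 2.72 in non-Tfh cells. The third, chr6:83298401-83300200, stood at 42.5 and 32.4 in Tfh and at 17.4 and 28.0 in non-Tfh cells. These 3 were picked for high Tfh percentiles, so their lower non-Tfh values follow from the choice; 10 of the 26 had a higher mean percentile in the Tomato- non-Tfh than in the Tomato- Tfh libraries.

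The 282 regions without an island in any non-Tfh library were found in Tomato- Tfh cells alone among the 8 libraries. Their widths ran from 600 to 7800 bp with a median of 2400 bp, and their median mean percentile was 16.0. The 3 highest ranked were chr6:100509401-100515000, at percentiles 57.3 and 38.3 in Tomato- Tfh replicates 1 and 2, chr3:68493401-68498800, at 51.2 and 35.2, and chr10:68185201-68189200, at 45.4 and 37.8. The distances of these 3 to the nearest Tomato+ Tfh island were 103.2, 14.2 and 47 kb. All 3 ranked higher in replicate 1 than in replicate 2, as did 680 of the 1169 regions.

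The first of these had a neighbour with the same Tfh pattern. The region chr6:100530001-100533400 lies beside chr6:100509401-100515000, with no Tomato+ Tfh island in between. It stood at percentiles 47.9 and 49.1 in Tomato- Tfh replicates 1 and 2 and at 32.2 in Tomato- non-Tfh replicate 2, with no island in the other 3 non-Tfh libraries. Neither region had an island in any of the 4 Tomato+ libraries.

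In non-Tfh cells the whole set ranked much as in Tfh cells. The median percentile of those with an island was 22.1 and 15.3 in Tomato- and 20.3 and 22.3 in Tomato+ non-Tfh replicates 1 and 2, beside 20.5 and 15.8 in the Tomato- Tfh replicates. The 10 regions with the highest mean percentile in Tomato- Tfh cells, described next, were picked on that value, so lower ranks in the non-Tfh libraries follow from the choice and say nothing about the set.

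The region with the highest mean percentile of all, chr7:46555001-46562800, is 7800 bp wide and stood at percentiles 62.6 and 55.8 in Tomato- Tfh replicates 1 and 2. It stood at 36.7 and 9.04 in the Tomato- non-Tfh replicates and at 4.87 in Tomato+ non-Tfh replicate 1, with no island in replicate 2. The scores behind its Tfh percentiles, which are the authors' own values, were 118 and 101.7. A Tomato+ Tfh island lay only 1.2 kb away. The region at rank 4, chr7:134308201-134311400, stood at 52.5 and 52.2 in Tomato- Tfh cells, at 8.46 in Tomato- non-Tfh replicate 1 and at 18.2 in Tomato+ non-Tfh replicate 2. A Tomato+ non-Tfh island was thus called in 1 replicate at each of these 2 regions.

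Regions at ranks 6 to 8 had islands in 3 non-Tfh libraries. At chr5:116344401-116348000 the percentiles were 50.4 in both Tomato- Tfh replicates, 43.3 and 25.2 in the Tomato- and 9.28 in the second Tomato+ non-Tfh replicate. At chr3:84062001-84065400 they were 49.2 and 51.5 in Tomato- Tfh, 29.6 and 40.5 in the Tomato- and 4.15 in the first Tomato+ non-Tfh replicate. These 2 ranked higher in both Tomato- than in either Tomato+ non-Tfh library. The region chr10:7673401-7677200 went the other way, with 53.7 and 44.5 in Tomato- Tfh, 5.41 in Tomato- non-Tfh replicate 2, no island in replicate 1, and 49.7 and 17.7 in the Tomato+ non-Tfh replicates.

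The remaining 4 of the 10 highest ranked regions had an island in all non-Tfh libraries, so that only Tomato+ Tfh cells lacked one. At chr2:4981801-4986000 the percentiles were 54.9 and 53.2 in Tomato- Tfh, 4.71 and 24.8 in Tomato- non-Tfh and 24.7 and 31.7 in Tomato+ non-Tfh replicates. At chr5:75339001-75342200 they were 55.3 and 52.1, then 39.0 and 2.61, then 15.2 and 27.8 in the same order. At both regions the Tomato- and Tomato+ non-Tfh groups overlapped. At chr11:57984801-57987600 the values were 43.9 and 57.6 in Tomato- Tfh, 14.4 and 24.1 in Tomato- non-Tfh and 25.4 and 35.6 in Tomato+ non-Tfh replicates, with a Tomato+ Tfh island 1.8 kb away. At chr5:142876201-142879400 they were 43.2 and 53.7, then 20.6 and 20.5, then 21.9 and 26.5. At these last 2 regions both Tomato+ non-Tfh values lay above both Tomato- non-Tfh values. All 10 regions kept the Tomato- only Tfh pattern with the same number of islands in every library. This follows from the choice of high percentiles. That setting left out only the lowest 24.9% and 19.7% of the islands of Tomato- Tfh replicates 1 and 2.

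**Figure D4:**
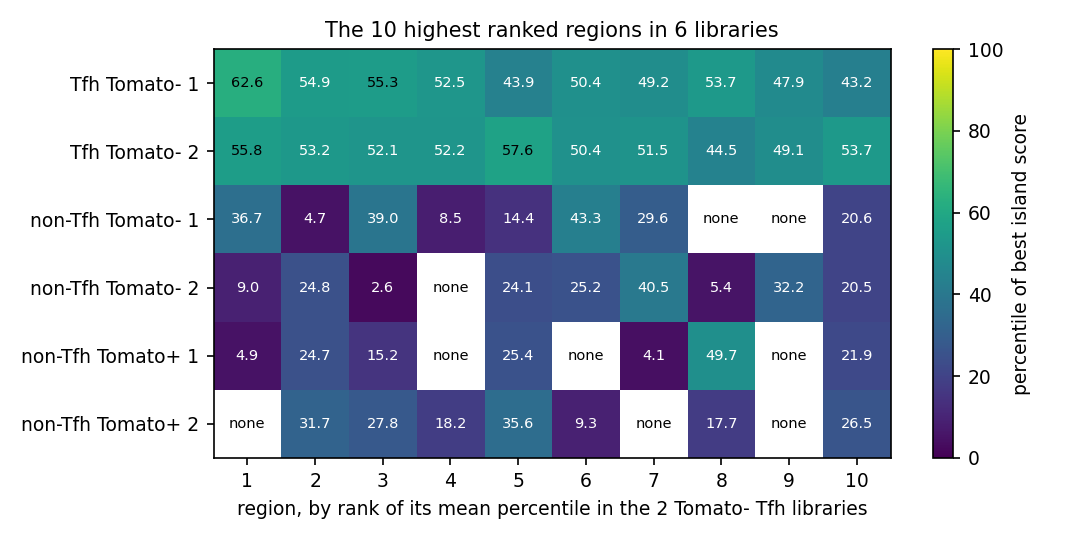
Percentile of the best island score (colour and number) of the 10 regions with the highest mean percentile in Tomato- Tfh cells, numbered by that rank, in the 2 Tomato- Tfh and 4 non-Tfh libraries; white cells marked none had no island. The Tfh rows, on which the regions were picked, lie between 43.2 and 62.6, and 9 of 40 non-Tfh cells are empty.

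The 66 regions with islands in both Tomato+ but neither Tomato- non-Tfh library joined Tomato- Tfh cells with Tomato+ non-Tfh cells. The highest ranked was chr2:28321001-28325200, at percentiles 50.6 and 40.9 in Tomato- Tfh and 10.9 and 13.9 in Tomato+ non-Tfh replicates. The next were chr11:61496601-61500600, at 39.9 and 30.6 in Tomato- Tfh and 33.2 and 35.4 in Tomato+ non-Tfh replicates, and chr5:38650001-38652200, at 40.5 and 25.3 and at 28.8 and 1.09. In the second of the 3 the non-Tfh values lay between the Tfh values, and in the first they lay well below.

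Of the 887 regions with a non-Tfh island, 405 (45.7%) had a higher mean percentile over the non-Tfh libraries with an island than over the Tomato- Tfh libraries. At or above the 50th percentile in at least 1 non-Tfh library were 81 regions, 37 and 5 in Tomato- replicates 1 and 2 and 25 and 45 in Tomato+ replicates 1 and 2. In the Tomato- Tfh replicates 31 and 15 of the 1169 were. Among the 3 widest regions, chr1:43592401-43600800 stood at 20.8 and 39.4 in Tomato- Tfh, 51.3 and 30.4 in Tomato- non-Tfh and 71.0 and 78.2 in Tomato+ non-Tfh replicates. Another, chr11:106277201-106281800, chosen after its values were seen, stood at 12.8 and 20.1 in Tomato- Tfh, 19.98 and 65.4 in Tomato- non-Tfh and 81.3 and 83.2 in Tomato+ non-Tfh replicates. These sites ranked highest in Tomato+ non-Tfh cells, and no island was called at them in Tomato+ Tfh cells. The widest region, chr3:132403601-132412800, 9200 bp, stood at 49.3 and 24.0 in Tomato- Tfh, 31.5 in Tomato- non-Tfh replicate 2 and 44.2 and 40.5 in Tomato+ non-Tfh replicates. The second widest, chr2:38201801-38210400, 8600 bp, stood at 9.40 and 9.57 in Tomato- Tfh and at 45.2 in Tomato- non-Tfh replicate 2 alone. Of the 3 widest, the last and chr1:43592401-43600800 did not keep the Tfh pattern with the same number of islands.

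Regions that ranked higher in Tomato- Tfh cells were more often open in non-Tfh cells of both kinds. Of the 293 regions with the lowest mean percentiles, 44.0% and 24.9% had an island in Tomato- and 45.4% and 44.7% in Tomato+ non-Tfh replicates 1 and 2. Of the 292 with the highest, the shares were 63.7% and 55.8%, and 62.0% and 59.9%. Islands in all 4 non-Tfh libraries went from 8.87% of the lowest to 28.4% of the highest, and islands in none from 30.4% to 15.1%. These are groups of regions and not of samples, and the Spearman rho between the mean percentile and the number of non-Tfh libraries was 0.227 across the 1169 regions. The gap between Tomato- non-Tfh replicate 2 and the other 3 libraries was narrower among the highest than among the lowest.

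**Figure D5:**
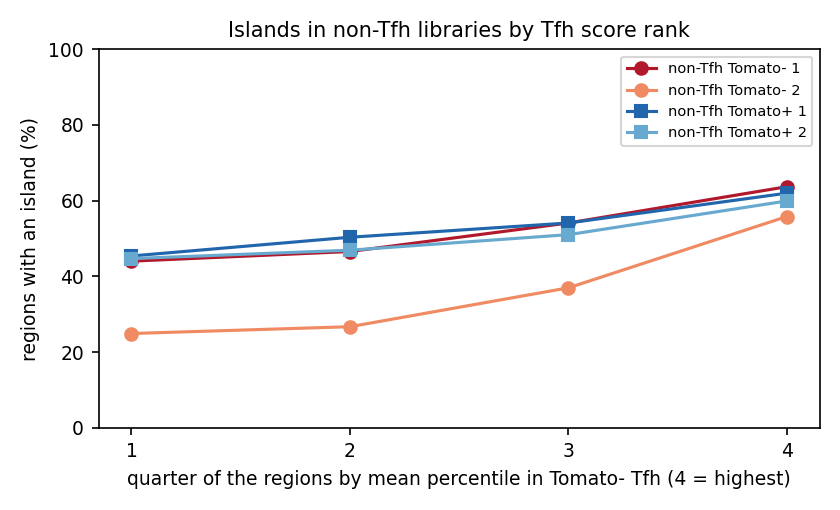
Percentage of regions with an island in each of the 4 non-Tfh libraries (lines), for the 1169 regions cut into 4 groups of about equal size in order of their mean percentile in the 2 Tomato- Tfh libraries. All 4 lines are higher in the group with the highest percentiles than in the lowest, and Tomato- replicate 2 goes from 24.9% to 55.8%.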

How the data were processed

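The 8 DNase libraries of the lymph node (2 in each of 4 groups, from the sample titles) were analysed. The submitters' processing notes name CASAVA 2.18, Bowtie2, SICER 1.1 and edgeR with build mm9, without their roles. The names of the deposited files record removal of duplicate reads and, for island calling, 200-bp windows, 400-bp gaps and E-value 1, with 1 file per library. Each deposited island has a score, the authors' own value, which served for ranks and thresholds inside a library; the lowest scores are given only to describe each list. The authors' RPKM and read counts per transcript, as deposited, served for levels and totals of marker genes, keeping for each symbol the row with the most reads.

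Overlapping or touching islands were joined into regions with Python 3.11.15 and pandas 2.3.3, and the joining and counting were tested on simulated islands. An island anywhere in a region counted as present. Shares of regions are given per non-Tfh library and compared by an exact permutation test over the 4 libraries. Named regions are the 10 with the highest mean percentile in Tomato- Tfh cells, the 3 highest in each of 4 non-Tfh states and the 3 widest. The regions, lists and rules were chosen with earlier results of these data known. Alternatives were merging across 1000 bp, 200-bp bins, islands at or above the median score, equal island numbers, no island of the other Tfh group within 1000 bp, the replicate number as a block and leaving out each library. Spleen RNA was not used.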

Additional observations from a re-analysis of the deposited data

How the results depend on the processing

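The number of regions with the Tfh pattern was 684 with only islands at or above the median score of their library (only 5 of the 1169 regions described here still overlapped one), 296 with the same number of islands and 12426 over 200-bp bins. Leaving out 1 Tfh library loosens the rule, and the number then ran from 1827 to 3366. The difference in the share of these regions between Tomato- and Tomato+ non-Tfh cells changed sign to 24.2 points with the same number of islands and 1.002 points over bins, and ran from -15.7 to 0.299 points with 1 library left out, the latter without Tomato- non-Tfh replicate 2. The difference relative to the reverse regions stayed positive in every setting run, from 0.36 points over bins to 44.2 points with the same number of islands, and from 15.8 to 36.7 points with 1 library left out. Paired by replicate number (replicate block), the 2 differences were -7.70 and 34.8 points as before, each with an exact sign-flip p of 0.5, the smallest that 2 pairs can give. The numbers do not mark a shared animal or day in the labels, and same-numbered libraries did not deviate together, with correlations of -0.0425 to 0.0499 across regions. Merging across 1000 bp and leaving out regions near an island of the other Tfh group changed no direction. With 2 libraries a group, no p below 0.05 is possible, and the unknown read depth limits what an absent island shows.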
